A study of Mus musculus with 6 samples.

Results

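The genes that encode the proteins of the cytosolic ribosome were followed in 6 RNA-sequencing libraries of mouse fetal liver. They were chosen by gene symbol, Rpl or Rps followed by a number and at most 1 of the letters a, x and l, and 74 of the 12579 genes in the count table matched. Of these, 43 have large subunit (Rpl) and 31 small subunit (Rps) symbols, and paralogues such as Rps27l and Rpl39l and the annotated pseudogene Rps4l are among them. All 74 passed the filter on low counts, which kept 12576 genes. Ribosomal protein genes with other kinds of symbol, such as Rplp0 and Rpsa, are given apart, and a gene such as Rpl26 that the table does not list was not analysed here.

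The libraries were 3 from Prl2-/- and 3 from Prl2+/+ fetal livers taken at E14.5, and the labels give the cells as haematopoietic stem and progenitor cells. PRL2 is a small protein tyrosine phosphatase encoded by Ptp4a2, and the labels name no treatment, strain or other allele for either genotype. Each library was made from 1 ng of total RNA by template switching and tagmentation, which does not mark the strand. The labels do not say whether each library of a genotype came from its own embryo. Xist, the RNA that coats the inactive X of female cells, had 0, 0 and 284 counts in Prl2-/- replicates 1 to 3, against 239, 266 and 0 counts in Prl2+/+ replicates 1 to 3, so neither genotype was sampled from a single embryo alone. The p-values measure the spread among these libraries, and how much of it is technical is not known. In such bulk libraries fewer cells of a type and less RNA per cell cannot be told apart.

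Total counts were 25965111 to 37026282 per library. Ptp4a2 (chromosome 4, 129820479 to 129850003, GRCm38) had 44, 38 and 38 counts in Prl2-/- replicates 1 to 3, against 8088, 9906 and 8135 counts in Prl2+/+ replicates 1 to 3, so the libraries went with their labels. All 12 markers chosen for haematopoietic progenitors (among them Kit, Cd34 and Mpo) were in the table. Their summed CPM (counts after scaling for library size) were 18167, 15596 and 17742 in the Prl2-/- libraries, against 13262, 14394 and 16827 in the Prl2+/+ libraries. Mpo alone made up most of each sum, at 13695, 11690 and 13297 CPM in Prl2-/- libraries, against 9800.5, 10837 and 12770 CPM in Prl2+/+ libraries. Kit had 204, 224 and 229 CPM in Prl2-/- libraries, against 188, 247 and 211 CPM in Prl2+/+ libraries. Of the 12 genes, 8 were estimated higher and 4 lower in Prl2-/- libraries. Markers of hepatoblasts were measured in every library too, with sums given below beside the results they bear on.

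A ribosome holds a single copy of nearly every ribosomal protein, so cells keep the output of these genes in balance, and a shortage of a single one stalls the assembly of its subunit. Their mRNAs begin with a pyrimidine-rich tract, the terminal oligopyrimidine or TOP motif, through which LARP1 and the mTOR kinase regulate their translation. In the blood-forming system, loss of an allele of any of several of these genes causes Diamond-Blackfan anaemia in humans, a failure of red cell production, and haematopoietic stem cells are known for a low rate of protein synthesis. Counts of mRNA do not measure translation or ribosome number.

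The promoters were searched for motifs around the starts of the genes. RefSeq windows (GRCm38.p6) were found for 54 of the 74 genes, 65 windows in all because some genes have several starts. The windows below, for some of the genes described further on, run from 30 bases before to 30 bases after the annotated start. They are given in the direction of transcription, and capitals mark runs of at least 8 pyrimidines (C or T).
Rps10 (chr17:27635215-27635274, minus strand): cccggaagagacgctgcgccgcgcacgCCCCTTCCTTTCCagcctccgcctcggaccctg
Rps6 (chr4:86857338-86857397, minus strand): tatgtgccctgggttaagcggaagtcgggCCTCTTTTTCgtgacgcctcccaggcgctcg
Rpl11 (chr4:136053364-136053423, minus strand): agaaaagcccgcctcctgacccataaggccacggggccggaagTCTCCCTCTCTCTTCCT
Rpl4 (chr9:64173357-64173416, plus strand): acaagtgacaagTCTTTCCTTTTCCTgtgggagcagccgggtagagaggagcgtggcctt
Rps27 (chr3:90213619-90213678, minus strand): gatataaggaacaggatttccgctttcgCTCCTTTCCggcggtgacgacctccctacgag
Rps27l (chr9:66946056-66946115, plus strand): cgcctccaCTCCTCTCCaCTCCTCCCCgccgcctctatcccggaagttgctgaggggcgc
In Rps10, Rps6 and Rps27 the run spans the annotated start itself, and in Rpl11 and Rpl4 it lies to 1 side of it. Every window shown holds a run, which was not so for all members. Over the same 30 bases to each side, the windows of Rps2, Rps16, Rps19, Rps4x, Rpl10, Rpl22 and Rpl27, among others, held none. Read on the strand of the transcript, within 50 bases before to 50 bases after the start, 54 of 65 windows (83.1%) held such a run, against 35.7% of all 32851 RefSeq windows of the same length. The motif CCGGAAGT, which ETS family factors such as GABP recognise, stood on either strand of the whole window in 10 of 65 (15.4%), against 3.89% of all windows. TATAAA, read on both strands of the 50 bases before the start, was in 0 of 65 windows, against 3.5% of all windows. These matches describe the letters only and were not tied to any measured binding.

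Most ribosomal protein genes were among the abundant transcripts of these libraries. Levels between genes are compared per length, as RPKM, the CPM divided by the exon length in kilobases, averaged over all 6 libraries. The large subunit genes had a median level of 273 RPKM, with quartiles of 172 and 414 and a range of 1.02 to 868. The small subunit genes had a median level of 363 RPKM, with quartiles of 272 and 505 and a range of 4.41 to 937. In all, 64 of the 74 genes lay between 100 and 1000 RPKM. The highest large subunit genes were Rpl13 at 868 ± 47.3 RPKM, Rpl4 at 683 ± 19.3 RPKM, which lines the tunnel through which the new protein leaves, and Rpl32 at 668 ± 53.5 RPKM (SD, n = 6). Rpl4 and Rpl32 differed by less than the spread of Rpl32 over libraries. Among the highest small subunit genes were Rps14 at 920 ± 105 RPKM and Rps2 at 838 ± 57.1 RPKM (SD, n = 6), which differed by less than the spread of Rps14 over libraries.

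**Figure D1:**
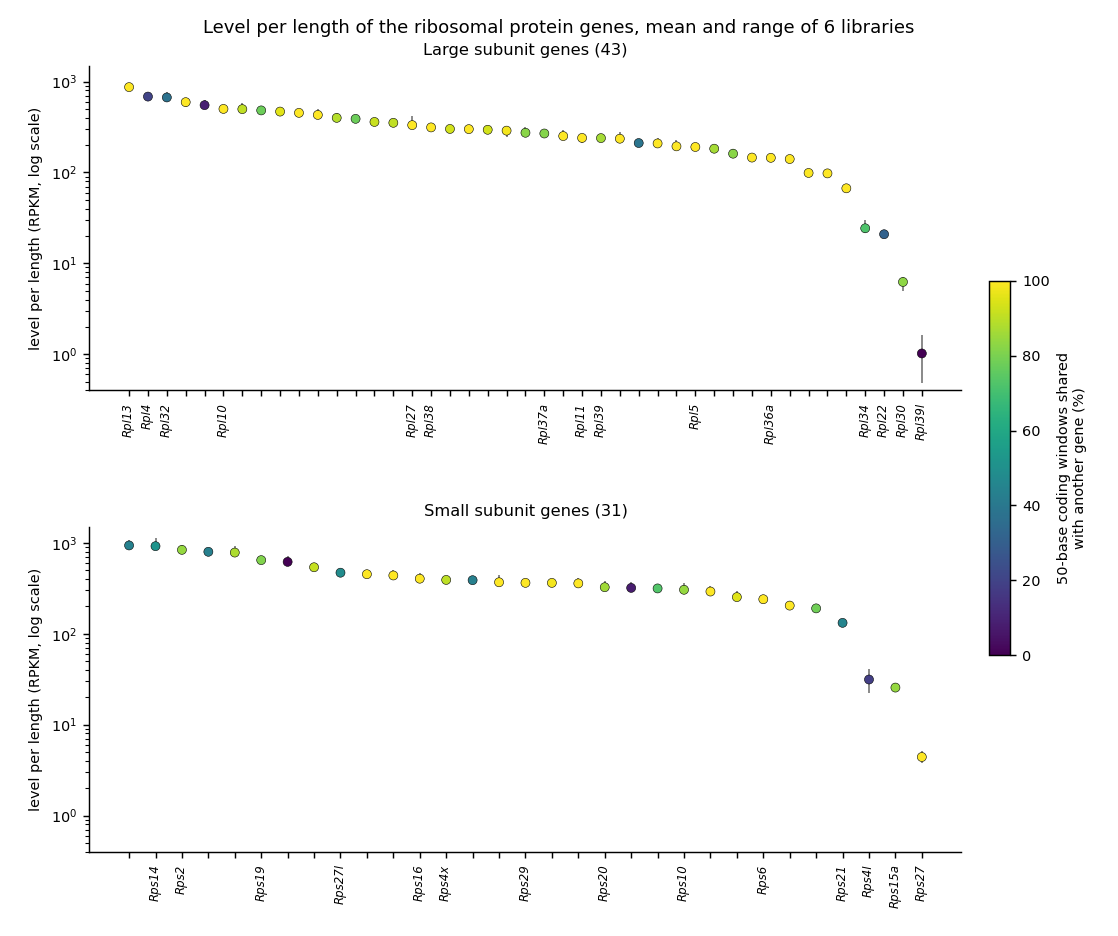
Mean level of each of the 74 genes over all 6 libraries, in RPKM on a log10 axis, with the range over libraries as a line, colour for the percentage of 50-base coding stretches shared with another gene, and large and small subunit genes apart and the genes described in the text named. Most genes sit between 100 and 1000 RPKM, and 7 fall under 50: Rpl39l, Rpl30, Rpl22, Rpl34, Rps27, Rps15a and Rps4l.

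Below 50 RPKM lay 7 genes. Among large subunit genes these were Rpl39l at 1.02 ± 0.457, Rpl30 at 6.24, Rpl22 at 20.9 and Rpl34 at 24.3 RPKM. Among small subunit genes they were Rps27 at 4.41, Rps15a at 25.6 and Rps4l at 31.4 RPKM. Rps15a has an exon length of 5134 bases in the table, and 148, 131 and 130 CPM in the Prl2-/- libraries, against 134, 129 and 118 CPM in the Prl2+/+ libraries, so its low level per length goes with that length. Rps27 and Rpl30, genes that encode core subunit proteins, share much of their coding sequence exactly with other genes, as do most members. Whether this lowered their values was not tested.

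Shared sequence limits what these counts can say, because the handling of reads that fit several places is not given in the sources used here. In GENCODE M21, 72 of the 74 genes shared at least 1 stretch of 50 coding bases exactly with another gene. Many of these other genes are annotated pseudogenes. Rpl39l was among the 2 members that shared no such stretch. In 29 genes every 50-base stretch had such a copy, in 31 genes 50% to under 100% did, and in 14 genes under 50% did. The median level was 292 RPKM in the first class, 315 RPKM in the second and 429 RPKM in the class under 50%. All of the 50-base stretches of Rps27 were shared, with 9 other genes of which 8 are annotated pseudogenes. For Rpl30 the share was 83.1%, with 16 other genes, and for Rpl34 it was 72.2%, with 9. Level and sharing did not go together throughout. Rpl13, the highest large subunit gene, lay in the class with every stretch shared, while Rpl22 at 20.9 RPKM shared 31%. Rpl22 has an exon length of 2497 bases, and its mean was 52.5 CPM in Prl2-/- and 52.1 CPM in Prl2+/+ libraries. Part of its low level per length thus goes with that length, as for Rps15a.

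The genome holds close relatives of Rps27 and of Rps4x that differ in how far their reads can be told apart. The first 60 coding bases are shown because they make that difference visible, with capitals in the second and later sequence of each family marking bases that differ from the first.
Rps27 (chr3:90212522-90213651, minus strand): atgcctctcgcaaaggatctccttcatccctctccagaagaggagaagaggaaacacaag
Rps27l (chr9:66946086-66949516, plus strand): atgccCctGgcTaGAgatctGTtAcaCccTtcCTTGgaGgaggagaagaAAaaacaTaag
Rps27rt (chr9:114982366-114982739, minus strand): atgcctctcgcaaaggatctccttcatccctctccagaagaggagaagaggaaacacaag
Rps4x (chrX:102184941-102189394, minus strand): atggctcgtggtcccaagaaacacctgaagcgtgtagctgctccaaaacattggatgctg
Rps4l (chr6:148354656-148355598, plus strand): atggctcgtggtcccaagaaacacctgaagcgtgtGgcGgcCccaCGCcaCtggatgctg
Rps27rt is identical to Rps27 over its whole coding sequence of 252 bases, while Rps27l is 76.2% identical to it, with 60 differing bases. Rps27rt is not in the table and was not analysed here. Rps4l, annotated as a transcribed processed pseudogene, is 79.6% identical to Rps4x over 789 bases, with 161 differing bases. Of the 50-base stretches, 18% in Rps4l and 48.3% in Rps27l were shared exactly with another gene, and of the 100-base stretches 2.0% in Rps4l and 0% in Rps27l. The genes sharing 50-base stretches, 1 for Rps4l and 4 for Rps27l, were all annotated pseudogenes, so Rps4x and Rps27 were not among them. Exons of another gene overlap those of 15 of the 74 genes, among them Rpl30, and in 11 of these on the opposite strand, whose reads the libraries cannot tell apart.

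The question put to the genotypes was whether loss of PRL2 went with other amounts of ribosomal protein mRNA. No ribosomal protein gene passed the test: edgeR's quasi-likelihood test with Benjamini-Hochberg adjustment over all 12576 genes tested called 0 of 74 at an adjusted p under 0.05, where it called 5 genes in all, 0.0398% of those tested, of which 2 were higher in Prl2-/- libraries (0.0159%) and 3 lower (0.0239%). At an unadjusted p under 0.05 there was 1 gene, Rps4l, against 4.6% of all genes. The DESeq2 Wald test called 1 of the 74, again Rps4l, against 0.298% of its genes, and limma-voom called 0, against 0.0318%. The estimates were small. Log2 fold changes, Prl2-/- minus Prl2+/+, had a median of 0.054 over the large subunit genes and 0.091 over the small subunit genes, beside −0.001 over all genes tested. Estimates were above 0 for 38 of 43 large and 28 of 31 small subunit genes, against 49.8% of all genes.

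The precision of these estimates was high for most of the genes. The 95% confidence interval of the log2 fold change lay wholly between −0.5 and 0.5 for 70 of 74 genes, and the exceptions were Rps4l, Rpl39l, Rpl30 and Rps27. The last 3 are the genes of lowest level. The median biological coefficient of variation fitted per gene was 0.0905 for the ribosomal protein genes and 0.143 for all genes tested.

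**Figure D2:**
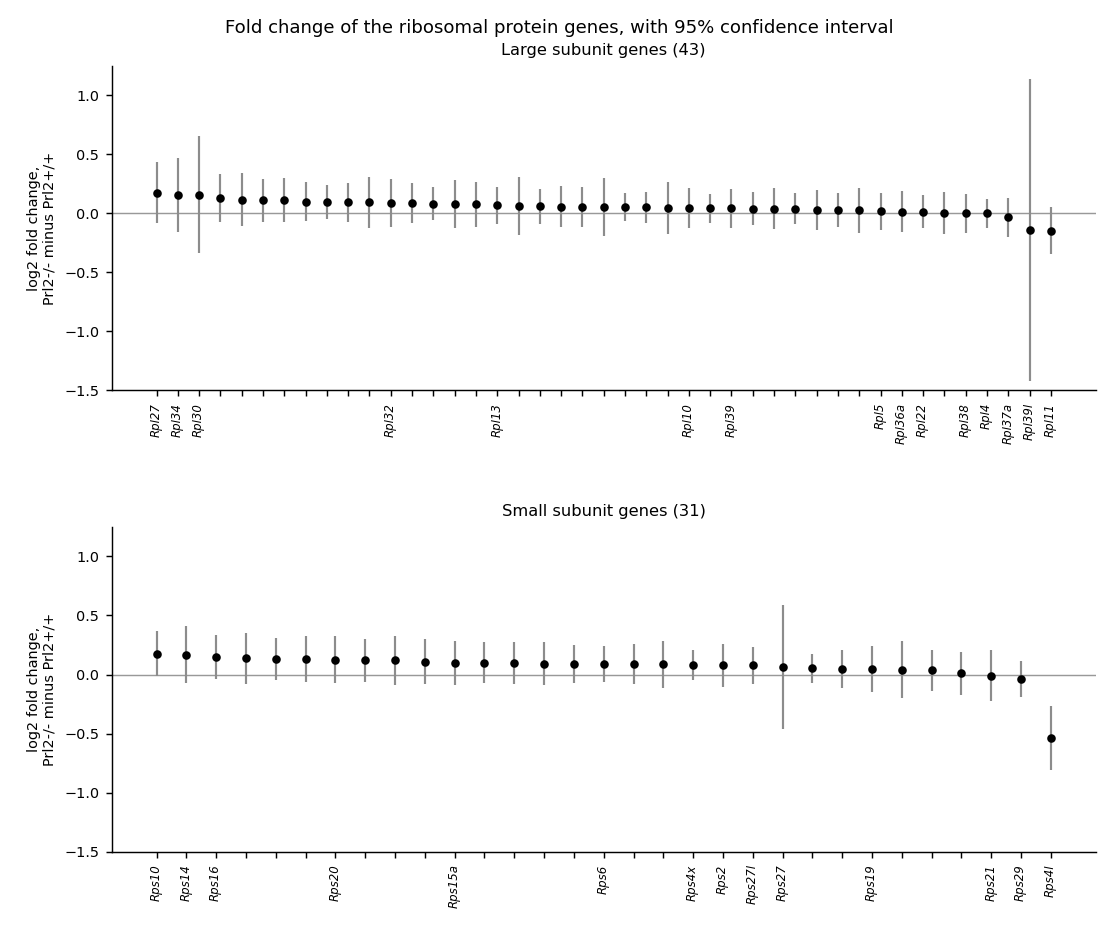
Log2 fold change of each gene (Prl2-/- minus Prl2+/+, edgeR) with its 95% confidence interval, large and small subunit genes apart and the genes described in the text named. Most points lie slightly above 0 with intervals that include 0, Rps4l lies at −0.54 with an interval below 0, and Rpl39l has the widest interval.

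Prl2-/- replicate 1 carried most of this small upward offset. Counts of the 74 genes made up 2.17%, 1.97% and 1.90% of all counts in Prl2-/- replicates 1 to 3, against 1.93%, 1.94% and 1.85% in Prl2+/+ replicates 1 to 3. The groups overlapped, with Prl2-/- replicate 3 below Prl2+/+ replicates 1 and 2. The mean share was 2.01 ± 0.144% in Prl2-/- and 1.91 ± 0.0507% in Prl2+/+ libraries (SD, n = 3 each), and the difference of 0.105 percentage points was smaller than the spread among the Prl2-/- libraries. Large subunit genes made up 1.10 ± 0.0675% of counts in Prl2-/- and 1.06 ± 0.0304% in Prl2+/+ libraries. Small subunit genes made up 0.909 ± 0.0762% in Prl2-/- and 0.850 ± 0.0202% in Prl2+/+ libraries (SD, n = 3 each).

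**Figure D3:**
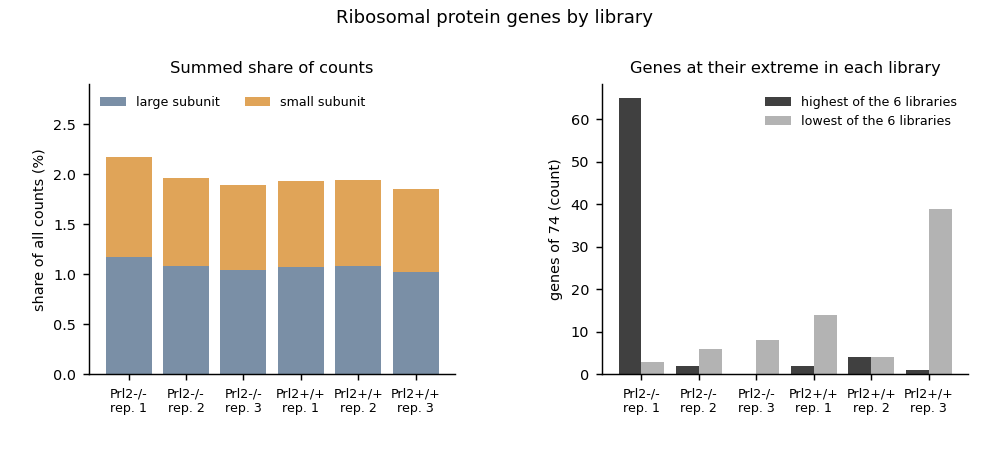
Left, share of all counts (%) taken by large and by small subunit genes, stacked, in each library; right, number of the 74 genes with their highest and with their lowest CPM in each library. Prl2-/- replicate 1 has the tallest stack and the highest CPM for 65 genes, and Prl2+/+ replicate 3 has the lowest for 39.

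Gene by gene the same library stood out. Prl2-/- replicate 1 had the highest CPM of the 6 libraries for 65 of 74 genes, 37 large and 28 small, against 26.0% of all genes tested. Prl2+/+ replicate 3 had the lowest for 39 genes, 21 large and 18 small, against 16.0% of all genes. Set against the mean of the other 5 libraries, Prl2-/- replicate 1 had a median ratio of 1.12 over large and 1.15 over small subunit genes, and the ratio was above 1 for 70 of 74. The highest ratios were 1.31 for Rpl27, 1.30 for Rpl34 and 1.28 for Rps14, and the lowest were 0.434 for Rpl39l and 0.673 for Rps4l. Without that library the median log2 fold change was 0.000 over large and 0.026 over small subunit genes, and estimates were above 0 for 23 of 43 and 21 of 31.

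**Figure D4:**
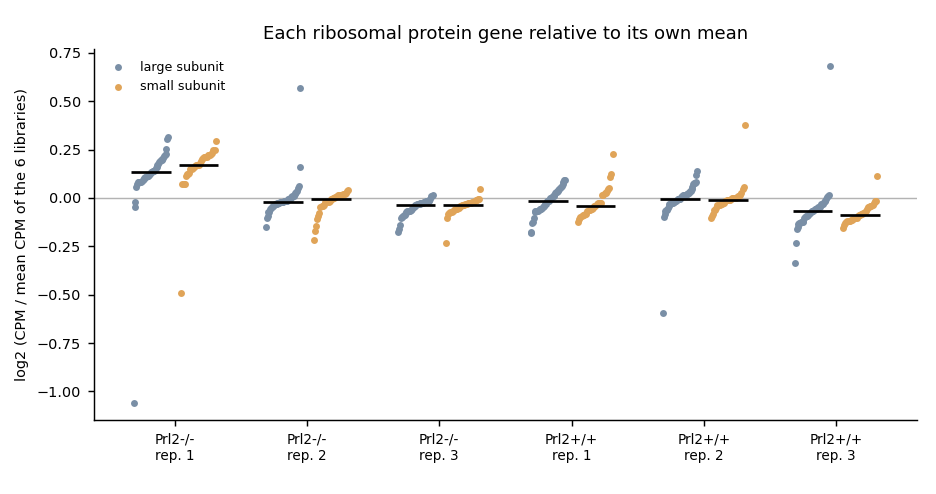
Log2 ratio of each gene's CPM in a library to its mean over all 6 libraries, by library, with large and small subunit genes in separate colours and black lines at their medians. The points of Prl2-/- replicate 1 sit above 0 for most genes of both subunits, those of Prl2+/+ replicate 3 tend to lie below 0, and the remaining libraries centre near 0.

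Markers of several other cell types also differed between these libraries. The summed CPM of 17 measured hepatoblast markers of 18 listed (among them Alb and Afp) was 79.6, 3005 and 402 in the Prl2-/- libraries, against 5354, 1036 and 187 in the Prl2+/+ libraries, and Serpina1a was at 0 in 1 library. That of 11 of 11 B lineage markers was 429, 75.5 and 199 in the Prl2-/- libraries, against 114, 131 and 342 in the Prl2+/+ libraries. Prl2-/- replicate 1 and Prl2+/+ replicate 3, the libraries with most and with least ribosomal protein mRNA, were thus the lowest libraries in hepatoblast and the highest in B lineage markers. The sum of 17 of 19 erythroid markers was 703, 1794 and 845 in the Prl2-/- libraries, against 1015, 1372 and 706 in the Prl2+/+ libraries. The sum of 12 of 12 megakaryocyte markers was 617, 491 and 407 in the Prl2-/- libraries, against 536, 375 and 351 in the Prl2+/+ libraries. All 12 had an estimate above 0 and none passed the test, and for 9 of them Prl2-/- replicate 1 was the highest library and for 9 Prl2+/+ replicate 3 the lowest, the same libraries as for ribosomal protein mRNA. The sum of 20 of 20 interferon response genes was 1383, 432 and 567 in the Prl2-/- libraries, against 1655, 990 and 1382 in the Prl2+/+ libraries, with Prl2-/- replicate 1 apart from its group. All 20 had an estimate below 0 and none passed the test, with a median log2 fold change of −0.933, or −1.719 without Prl2-/- replicate 1. With the hepatoblast, erythroid and B lineage markers left out of the total, the difference in the summed share was 0.103 percentage points. The part of these cell types and of the interferon response in the ribosomal protein values was not tested further.

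Of all 74 genes, the 4 with the smallest p-values and an estimate above 0 were small subunit genes, among them Rps10, Rps16 and Rps14. Rps10, a protein at the mRNA entry side that is ubiquitinated when ribosomes collide, had 207, 177 and 171 CPM in Prl2-/- libraries, against 163, 165 and 164 CPM in Prl2+/+ libraries. Every Prl2-/- library was above every Prl2+/+ library. Its estimated log2 fold change was 0.18 ± 0.081 (SE, 95% confidence interval −0.016 to 0.368), with an adjusted p of 0.899 by edgeR. It was 0.087 without Prl2-/- replicate 1. A readthrough transcript annotated on the same strand overlaps Rps10, so its reads cannot be kept apart.

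Rps6, the substrate of the S6 kinases downstream of mTOR, had 374, 331 and 331 CPM in Prl2-/- libraries, against 319, 328 and 325 CPM in Prl2+/+ libraries, with no overlap and a log2 fold change of 0.091 ± 0.064, or 0.030 without Prl2-/- replicate 1. Rps10 and Rps6 were among 3 members without overlap upward, 3 of 74 against 6.03% of all genes tested, and none was a large subunit gene. Rps16 had 288, 249 and 247 CPM in Prl2-/- libraries, against 230, 249 and 227 CPM in Prl2+/+ libraries, and its groups overlapped. Rps14, whose haploinsufficiency underlies the anaemia of the human 5q- syndrome, had 673, 552 and 518 CPM in Prl2-/- libraries, against 527, 514 and 509 CPM in Prl2+/+ libraries. Its high value came from Prl2-/- replicate 1 and its groups overlapped.

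The subunits kept nearly the same balance in both genotypes. Small subunit genes took 45.8%, 44.9% and 44.8% of the counts of the 74 genes in Prl2-/- libraries, against 44.6%, 44.4% and 44.7% in Prl2+/+ libraries. All Prl2-/- libraries were above all Prl2+/+ libraries. The gap between the nearest libraries of the genotypes was far smaller than the spread among the Prl2-/- libraries. The means were 45.2 ± 0.543% in Prl2-/- and 44.6 ± 0.183% in Prl2+/+ libraries (SD, n = 3 each), a difference of 0.61 percentage points. Over Prl2-/- replicates 2 and 3 alone the mean was 44.87%.

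Among large subunit genes Rpl11 had the smallest p of those with an estimate below 0. Rpl11 and Rpl5 join the 5S rRNA into a particle that enters the large subunit and that, when free, binds MDM2 and stabilises p53. Rpl11 had 151, 128 and 126 CPM in Prl2-/- libraries, against 148, 157 and 144 CPM in Prl2+/+ libraries. Replicates 2 and 3 of Prl2-/- were below all Prl2+/+ libraries, while Prl2-/- replicate 1 lay among them. Its estimated log2 fold change was −0.15 ± 0.084 (SE, 95% confidence interval −0.348 to 0.052), with an adjusted p of 0.899 by edgeR, and −0.23 without Prl2-/- replicate 1. Its partner Rpl5 had 416, 383 and 361 CPM in Prl2-/- libraries, against 396, 383 and 369 CPM in Prl2+/+ libraries, with a log2 fold change of 0.015 ± 0.067.

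Rpl11 lies 6.20 Mb distal of Ptp4a2 on chromosome 4. Other members on that chromosome were Rps20 and Rps6 on the proximal side, at −125.98 and −42.96 Mb, and Rpl22 on the distal side, at 22.47 Mb. Their log2 fold changes were 0.126 ± 0.084 for Rps20, 0.091 ± 0.064 for Rps6 and 0.012 ± 0.059 for Rpl22. None of these genes passed the test.

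Estimates of the other large subunit genes ran from −0.144 to 0.172. Rpl4 had 942, 1010 and 962 CPM in Prl2-/- libraries, against 952, 1000 and 960 CPM in Prl2+/+ libraries, with a log2 fold change of −0.002. It was among 4 genes whose ratio of Prl2-/- replicate 1 to the other libraries was under 1. Rpl27 had 303, 244 and 226 CPM in Prl2-/- libraries, against 224, 235 and 228 CPM in Prl2+/+ libraries, and a log2 fold change of 0.172 ± 0.108. Of its libraries only Prl2-/- replicate 1 and replicate 2 were above all Prl2+/+ values. Rpl37a at −0.034 and Rpl38 at −0.002 completed the large subunit genes with an estimate below 0, beside Rpl11, Rpl4 and Rpl39l. In the small subunit these were Rps4l, Rps29 at −0.039 and Rps21 at −0.009. The members on the X chromosome had log2 fold changes of 0.041 for Rpl39, 0.043 for Rpl10, which joins late in the maturation of the large subunit, 0.079 for Rps4x and 0.014 for Rpl36a. Libraries without Xist counts were 2 of 3 in Prl2-/- and 1 of 3 in Prl2+/+, so sex was not balanced between the genotypes, and its part in these values was not tested.

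**Figure D5:**
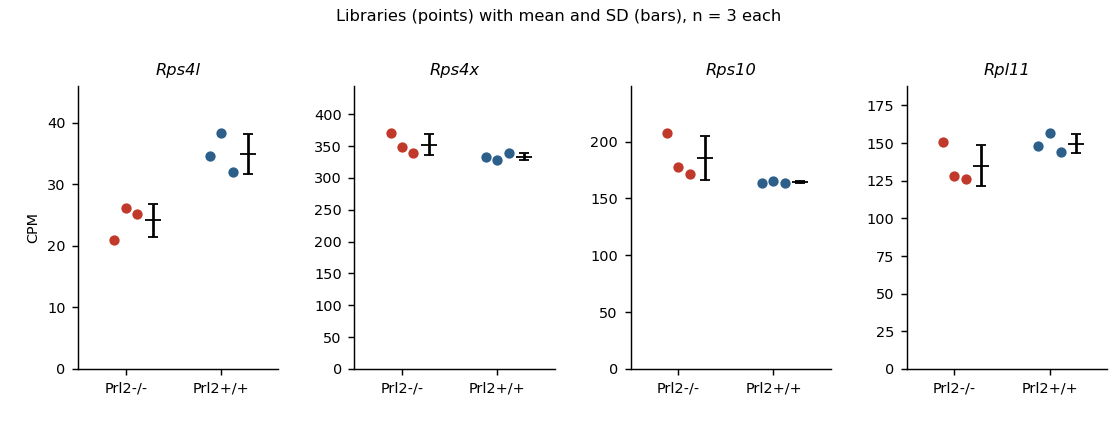
CPM of Rps4l, Rps4x, Rps10 and Rpl11 in each library (points), with the mean and SD of 3 libraries beside them (bars), Prl2-/- left of Prl2+/+ in each panel. For Rps4l the Prl2-/- points (21 to 26.2) lie below the Prl2+/+ points (31.9 to 38.3), for Rps10 they lie above, and for Rps4x and Rpl11 they overlap.

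Rps4l was the member that differed most between the genotypes, with the reservation that it did not pass the main test. Its counts were 751, 779 and 928 in the Prl2-/- libraries, against 911, 1275 and 826 in the Prl2+/+ libraries. In CPM it had 21, 26.2 and 25.1 in Prl2-/- libraries, against 34.6, 38.3 and 31.9 in Prl2+/+ libraries. All Prl2-/- values lay below all Prl2+/+ values, which held in this direction for 1 of 74 members and 5.07% of all genes tested. The mean was 24.1 ± 2.72 CPM in Prl2-/- and 34.9 ± 3.20 CPM in Prl2+/+ libraries (SD, n = 3 each). Its estimated log2 fold change was −0.54 ± 0.113 (SE, 95% confidence interval −0.806 to −0.267). The unadjusted p was 0.00234 and the adjusted p 0.878 by edgeR. The DESeq2 Wald test gave an adjusted p of 0.0361 and limma-voom one of 0.799, and over all alternatives it ranged from 0.0361 to 0.999. The estimate kept its sign when each library was left out in turn, from −0.60 to −0.447.

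Rps4l lies within an intron of Tmtc1, which is transcribed from the opposite strand. Tmtc1 had 22, 38 and 20 counts in Prl2-/- libraries, against 8, 51 and 11 in Prl2+/+ libraries, far fewer than Rps4l, with a log2 fold change of 0.082 ± 0.691 and an adjusted p of 0.983 by edgeR. Rps4x, which encodes the protein that Rps4l resembles, had 370, 348 and 338 CPM in Prl2-/- libraries, against 333, 328 and 339 CPM in Prl2+/+ libraries, with a log2 fold change of 0.079 ± 0.054. Counts per kilobase of Rps4l made up 5.01%, 6.54% and 6.46% of the sum of both genes in Prl2-/- libraries, against 8.82%, 9.81% and 8.05% in Prl2+/+ libraries. The means were 6.01 ± 0.86% in Prl2-/- and 8.89 ± 0.878% in Prl2+/+ libraries, a difference of −2.89 percentage points. The two-sided exact permutation test gave p = 0.1 for n = 3 each, the smallest that 3 against 3 can reach, and 0.3 after adjustment over the 3 pairs compared.

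The remaining pairs did not separate the genotypes. Rps27l, a paralogue of Rps27 known as a p53 target, had 237, 224 and 210 CPM in Prl2-/- libraries, against 223, 203 and 211 CPM in Prl2+/+ libraries, with a log2 fold change of 0.077 ± 0.067. It made up 99.1 ± 0.126% of the pair per kilobase in Prl2-/- and 99.1 ± 0.0206% in Prl2+/+ libraries, with p = 1.0 by the same exact permutation test. That share rests on the count of Rps27, at 2.97, 2.18 and 2.62 CPM in Prl2-/- libraries, against 2.58, 2.43 and 2.44 CPM in Prl2+/+ libraries, whose sequence has identical copies. Rpl39l, a paralogue of the exit tunnel protein gene Rpl39 that is best known from testis, had 0.392, 1.21 and 0.73 CPM in Prl2-/- libraries, against 0.721, 0.541 and 1.31 CPM in Prl2+/+ libraries. Its log2 fold change was −0.144 ± 0.536, and it made up 0.404 ± 0.226% of its pair in Prl2-/- and 0.448 ± 0.201% in Prl2+/+ libraries, with p = 0.8 by the exact permutation test.

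Of 20 genes listed for Diamond-Blackfan anaemia, 19 were in the table. Estimates were above 0 for 17 and below 0 for 2, Rpl11 and Rps29, with a median log2 fold change of 0.045. None passed the test, and 2 of the 19, Rps10 included, were higher in Prl2-/- libraries without overlap, against 6.03% of all genes. Prl2-/- replicate 1 was the highest library for 17 of the 19, and the median was −0.011 without it. Rps19, the gene most often mutated in that disease, had 457, 385 and 396 CPM in Prl2-/- libraries, against 399, 423 and 378 CPM in Prl2+/+ libraries, with a log2 fold change of 0.044 ± 0.082.

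Ribosomal protein genes outside the symbol rule had estimates of about the same size. Of 14 symbols listed, 11 were measured, with 9 estimates above and 2 below 0, a median of 0.078 and none past the test. The symbols not in the table were Rack1, another name of the measured Gnb2l1, and the pseudogenes Rpl10-ps3 and Rpl13-ps3. Prl2-/- replicate 1 was the highest library for 9 of the 11, and the median was 0.025 without it. Without overlap, 2 of the 11 were higher in Prl2-/- libraries, against 6.03% of all genes, and 1 was lower, against 5.07%. Rps3a1, 1 of the higher genes, had the smallest p, at a log2 fold change of 0.109 ± 0.051. The lower gene was Rpl22l1, the paralogue of Rpl22, at −0.10 ± 0.058. The proteins of the acidic stalk gave −0.014 for Rplp0, 0.078 for Rplp1 and 0.121 for Rplp2. With these genes added, the summed share differed by 0.126 percentage points.

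Mitochondrial ribosomal protein genes showed the same tilt. Of 77 measured, 69 estimates were above and 8 below 0, with a median of 0.075, or 0.021 without Prl2-/- replicate 1, which was the highest library for 63 of them. None passed the test, and the smallest p belonged to Mrpl16, at 0.167 ± 0.064. Among 18 genes for elongation factors and other TOP mRNAs, 12 estimates were above and 6 below 0, with a median of 0.033. Without Prl2-/- replicate 1 their median was 0.029, beside 0.011 for the 74 ribosomal protein genes. Prl2-/- replicate 1 was the highest library for 7 of the 18. Pabpc1, the poly(A) binding protein, had the smallest p there, at 0.179 ± 0.097. Whether the lists differ from each other was not tested.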

How the data were processed

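Raw counts of 6 libraries come from the authors' deposited table, per the file header, with exon positions and a summed exon length per gene. Reads were aligned with STAR and counted with featureCounts, per the submitters' processing notes. Tool versions, the genome build and the handling of reads with several matches were not given in the sources used here. Positions are given on GRCm38 because all 74 genes overlapped their RefSeq entries on that build and 70 had a gene end within 5 bases of it.

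Counts were fitted with edgeR 4.0.16 in R 4.3.3 (TMM factors, filterByExpr, quasi-likelihood test, no covariate) and p-values were Benjamini-Hochberg adjusted over 12576 genes (threshold 0.05). Fold changes are log2, Prl2-/- minus Prl2+/+. The fit was tested on simulated data. DESeq2 1.42.0, limma-voom (limma 3.58.1), other scaling factors, other filters, a replicate block and leaving out each library served as alternatives. CPM used TMM-scaled totals, and RPKM divided CPM by the exon length in the table. Shared sequence was counted as exact 50-base and 100-base stretches of coding sequence in GENCODE M21, and promoter windows came from RefSeq. Intervals cover the spread between libraries.

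Named genes were the 3 highest and 3 lowest by RPKM per subunit, the 4 smallest p-values per direction over all members, symbols ending in l, and genes on chromosomes 4 and X. The members and lists were chosen with earlier results of these data known. Other genes were named after their values were seen, as Rpl27, Rpl5, Rpl34, Rpl38 and Rps19. Some genes that this rule names are not reported here.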

Additional observations from a re-analysis of the deposited data

How the results depend on the processing

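With 3 libraries per genotype the 95% intervals of most ribosomal protein genes exclude changes beyond 0.5 on the log2 scale, while low counts limit Rpl39l, Rps27 and Rpl30. Over all genes, 5 passed the threshold in the edgeR fit, 36 with the DESeq2 Wald test and 3 to 4 when a library was left out. Same-numbered libraries did not deviate together (r of −0.638, 0.209 and 0.174), and with the replicate block 1 gene passed. Of the ribosomal protein genes, 0 passed in edgeR and in the 6 fits without a library, and 1 with DESeq2. The large subunit median log2 fold change was 0.000 to 0.089 and the small subunit median 0.026 to 0.132 over the fits without a library, the lowest without Prl2-/- replicate 1. The difference in summed share was 0.0247 to 0.163 percentage points over the same sets. Of the 74 estimates, 66 were above 0 with all libraries, 44 without Prl2-/- replicate 1 and 61 to 69 without each other library. Among the genes named by rule, estimates crossed 0 when a library was left out for Rpl10 (−0.03 to 0.09), Rpl22 (−0.019 to 0.033), Rpl36a (−0.043 to 0.054), Rpl37a (−0.083 to 0.003), Rpl39 (−0.005 to 0.067), Rpl39l (−0.606 to 0.296), Rpl4 (−0.03 to 0.019), Rps27 (−0.046 to 0.17) and Rps29 (−0.086 to 0.002). So did the pair share of Rps27l (−0.0624 to 0.0472 percentage points) and of Rpl39l (−0.162 to 0.0703). With upper quartile factors Rpl4 was at 0.005. The cause of these changes was not tested. Restricting to genes with under 50% of stretches shared, chosen after seeing the data, gave medians of 0.034 for large and 0.089 for small subunit genes.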

Other observations

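The composition of the ribosomal protein mRNA pool was steady from library to library. Each gene's share of the pool had a median coefficient of variation of 3.16% over the 6 libraries, and 56 of 74 genes stayed under 5%. The largest values were 47.7% for Rpl39l, 24.5% for Rps4l, 10.4% for Rpl30, 8.64% for Rpl11 and 7.64% for Rps27.

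Other genes of ribosome production gave no call either. Of 19 measured chaperones and assembly factors, 13 log2 fold changes were above and 6 below 0 (median 0.035). Tnpo1, an import receptor, had the smallest p, at −0.171 ± 0.058. Of 12 measured host genes of small nucleolar RNAs, 5 were above and 7 below 0, with a median of −0.040 and Snhg5 at −0.334 ± 0.159. Of 16 regulators of ribosomal protein mRNA translation, 9 were above and 7 below 0, with a median of 0.033 and Tsc2, an inhibitor of mTOR signalling, at 0.181 ± 0.060. All of these had an adjusted p of 0.899 or more by edgeR.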
